A study of Homo sapiens with 42 samples.

Results

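Many human mRNAs can be cleaved and polyadenylated at more than 1 place, and these data count reads at each such place. The report is about genes whose 2 most read entries are an annotated transcript end and a genomic position listed directly beneath that transcript in the authors' tables. The transcript end is the distal one of the pair, the position is called the upstream site, and each entry had to average at least 10 counts over a table's libraries. Members were thus chosen by their mean counts over all libraries of a table, the same counts that the shares below are made from. The quantity followed is the distal share, the percent of the pair's reads that lie at the transcript end. Across the 3 deposited tables, 586 genes met the rule, of 1001 genes whose pair had a known order: 481 of 829 in the table of LM2 and Par cells, 526 of 900 after knockdown or control, and 358 of 637 with T4 or DMSO. A total of 329 genes met it in all 3 tables, 327 of them with the same pair of entries, 121 in exactly 2 tables and 136 in exactly 1. The other pairs of known order were 2 transcript ends (244 genes in any table), 2 positions (147) or a transcript end and a position listed with a different end (43).

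All libraries came from MDA-MB-231, an established triple-negative human breast cancer cell line, and were made with the QuantSeq REV kit, which reads mRNAs from their poly(A) tail. The LM2 groups are MDA-MB-231 cells that the labels describe as highly metastatic to the lungs, and the Par groups are poorly metastatic ones, each with nuclear and cytoplasmic RNA. The gHNRNPC and gCTRL groups are poorly metastatic cells with HNRNPC knockdown or a control, again split into nuclei and cytoplasm. The T4 and DMSO groups are whole LM2 cells exposed for 6 h to a compound the labels call T4, at 3 µM, or to as much DMSO alone, with RNA taken then or, after fresh medium, at 24 or 72 h. Each of the 14 groups had 3 libraries, 42 in all. The labels do not say that the replicates came from separate cultures, nor how many clones or guides stand behind gHNRNPC, so each p-value reflects the spread of these libraries alone, and that spread may be technical.

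As background, the cleavage machinery recognises a hexamer, most often AATAAA, a short way before the cut, and a weaker site upstream is often followed by a stronger one at the end of the 3′ untranslated region. Use of the upstream site gives a shorter mRNA that lacks the sequence between the sites, where binding sites for microRNAs and RNA-binding proteins can lie. HNRNPC is a nuclear protein that binds runs of uridine in nascent RNA and is known for its part in splicing and in the choice of poly(A) site.

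The last 30 bases of a transcript are shown for members the results turn on. They are from GENCODE 29 on GRCh38 and are given only where the deposited entry has the same transcript version, which holds for 259 of the 586 members (44.2%). Capitals mark AATAAA or ATTAAA, searched on the transcript strand. Among those 259, AATAAA was present in 59.1%, ATTAAA without it in 12.4% and neither in 28.6%, against 18.0% with AATAAA and 5.01% with ATTAAA among all 56493 such transcript ends in the tables. By table, AATAAA was present in 60.2, 59.6 and 58.7% of members in LM2 and Par cells, after knockdown or control and with T4 or DMSO, against 52.4, 56.7 and 54.2% of distal ends in pairs of 2 transcript ends. The first 3 members gained distal share in nuclei or after the knockdown, the next 3 changed after T4.
BIRC5 (chr17:78225607-78225636, + strand): gccAATAAAgtctcatgtggttttatctac
SEPT2 (chr2:241353995-241354024, + strand): ttatcAATAAAgcactattgtttagatatt
SMIM7 (chr19:16646148-16646177, - strand): cttgaaAATAAAcctcatttctaaaaagga
PHLDA1 (chr12:76025447-76025476, - strand): tcaAATAAAgttatctattgagacaaccga
EHD1 (chr11:64852727-64852756, - strand): cATTAAAaagtctgaactgtgcgaaagctt
TCF19 (chr6:31164186-31164215, + strand): cctgtacaAATAAActtggctgcaatccca

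Other members end in letters without either hexamer. SPECC1L and FZR1 changed after the knockdown and have whole counts only; the others differed between nuclei and cytoplasm, and part of their reads is fractional.
SPECC1L (chr22:24417710-24417739, + strand): aggcaaccagataaacttttttgcctgtgc
FZR1 (chr19:3538301-3538330, + strand): gtggtaaaatacaaaatctaccgtcttaca
C19orf47 (chr19:40319536-40319565, - strand): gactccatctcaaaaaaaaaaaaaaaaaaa
PPP1R37 (chr19:45148048-45148077, + strand): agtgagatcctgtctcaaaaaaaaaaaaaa
PPIAL4G (chr1:148479824-148479853, - strand): agcctgggtaacagagcaagatcctgtctc
A missing hexamer and fractional counts do not go together throughout: the DSTYK end holds AATAAA, with 98.7% of the gene's reads in non-whole values in the T4 table. The C19orf47 transcript closes with a run of 19 A and the PPP1R37 transcript with a run of 14. Estimated counts that are not whole come from reads shared between entries. Non-whole values held 42.9% of the C19orf47 reads in the table of LM2 and Par cells, and 11% of the PPP1R37 reads and 100% of the PPIAL4G reads in the knockdown table. Levels of such members are uncertain, and members with over 10% of their reads in non-whole values numbered 62 of 481, 70 of 526 and 58 of 358 in the LM2 and Par, knockdown and T4 tables. No base sequence is given for the upstream sites, because only 9.79% of all listed positions fall within the GRCh38 span of their transcript and their genome build is not settled here.

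That the transcript end lies downstream follows from the order of the listing. It was checked by pairing a member with the nearest transcript end on the opposite strand, within 1 Mb, that had a position listed directly beneath it. That partner need not be a member. An offset of the coordinates cancels in the summed distance, which was positive in 221 of 225 (98.2%). Divided between both ends, it had a median of 1310 bases (quartiles 834 and 2957). The sum does not show the order for each member by itself. Distal means distal within the pair. Some transcript ends are not the last end of their gene.

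Library totals were 0.798 to 2.30 M counts in the table of LM2 and Par cells, 1.23 to 2.25 M with knockdown or control and 0.925 to 1.64 M with T4 or DMSO, and the pairs held 7.80 to 9.72%, 8.62 to 10.4% and 5.86 to 7.69% of a library's reads. The line's own markers (VIM, CD44, CAV1, AXL, FN1 and SPARC) summed to 613 to 6311 CPM (counts scaled to the library total), luminal and receptor genes to 5.88 to 36.5 CPM with PGR at 0 in all libraries, immune markers to 1.89 to 119.6 CPM with CD3E at 0 in all libraries, fibroblast markers to 0 to 64.4 CPM with DCN at 0, and endothelial markers to at most 1.5 CPM with CDH5 at 0. HNRNPC itself was at 87.3, 119.9 and 103 CPM in gHNRNPC cytoplasm, against 526, 444 and 478 CPM in gCTRL cytoplasm. In gHNRNPC nuclei it was at 82.9, 111 and 81.3 CPM, against 422, 528 and 677 CPM in gCTRL nuclei. One T4 library, replicate 3 at 6 h, stood apart: it was the shallowest of its table and its distal share for many members was far from the other T4 libraries. Replicate 2 of LM2 nuclei and of Par nuclei also stood apart in members with fractional counts. For PPIAL4G, LM2 nuclei read 0.766, 7.20 and 1.83% distal and Par nuclei 0.0999, 5.32 and 0.901%. Results that rest on these libraries are given with and without them.

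Members divided their reads in all proportions. The distal share over a whole table had a median of 53.1, 52.7 and 51.2% in the LM2 and Par, knockdown and T4 tables, and 10th to 90th percentiles of 16.6 to 89.9%, 13.4 to 90.2% and 16.9 to 89.6%. The transcript end was the more read entry in 251, 279 and 187 members. These values chose the members in part, and they are a description. Just inside the threshold of 10 counts in the table of LM2 and Par cells were E2F3 and AHNAK (10.0 each for the less read entry), and just outside were RP9P (9.93) and CLMP (9.92). Since the mean runs over all groups, an entry that is high in 1 group can pass through that group: without their highest group, 85 of 481, 90 of 526 and 43 of 358 members would have had an entry under 10. Among called members this holds for 24 of 179 between the fractions in LM2 cells, 7 of 69 in Par cells, 7 of 63 in gHNRNPC cells and 17 of 157 in gCTRL cells. It holds for 12 of 77 called for the knockdown in cytoplasm and 1 of 25 in nuclei, and for 2 of 24 called for T4 at 6 h and 3 of 9 at 24 h. Named members of this kind are not marked below, except AHNAK in LM2 and Par cells. Any other named contrast can thus be one of them, and would then be a description rather than a test.

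**Figure D1:**
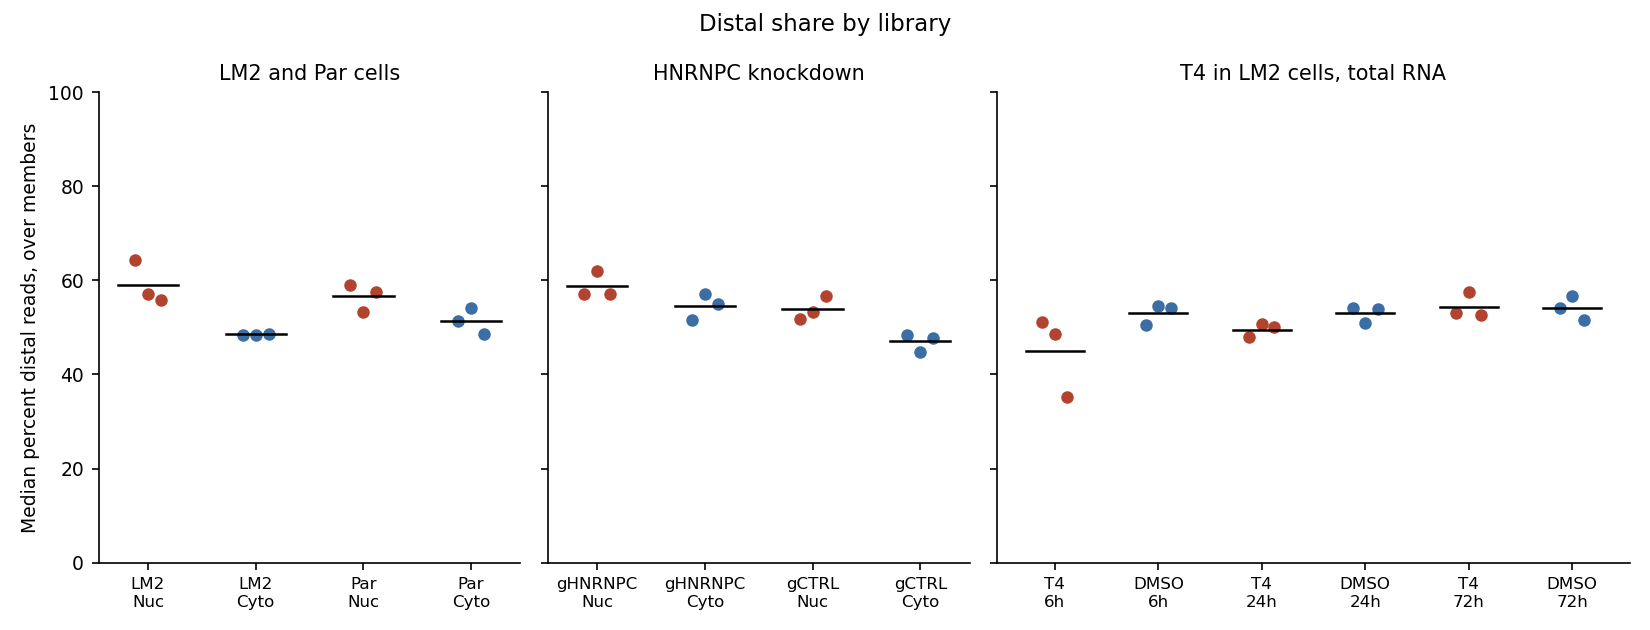
Median distal share over members in each library, in percent of a pair's reads, for 481 members in LM2 and Par cells, 526 with gHNRNPC or gCTRL and 358 with T4 or DMSO. Points are libraries and lines the means of 3; nuclei and T4 libraries are red, cytoplasm and DMSO libraries blue. Nuclear libraries lie above the cytoplasmic libraries of the same cells on average, with overlap in Par and in gHNRNPC cells, and 1 T4 library at 6 h lies at 35.3%.

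The typical member had a higher distal share in nuclei than in cytoplasm. In LM2 cells the median over members was 64.3, 57.1 and 55.9% in nuclear libraries, against 48.4, 48.5 and 48.7% in cytoplasmic libraries. In Par cells it was 58.9, 53.3 and 57.6% in nuclei, against 51.4, 54.1 and 48.6% in cytoplasm. The LM2 libraries do not overlap and the Par libraries do. In gHNRNPC cells nuclei stood at 57.0, 62.0 and 57.1%, against 51.6, 57.1 and 54.9% in cytoplasm. In gCTRL cells nuclei stood at 51.8, 53.3 and 56.6%, against 48.4, 44.8 and 47.8% in cytoplasm. The gHNRNPC libraries overlap and the gCTRL libraries do not. Over all pairs of known order the group means were 57.9% for LM2 nuclei and 47.5% for LM2 cytoplasm, against 59.1 and 48.5% for members. All pairs include the members, so this likeness is partly fixed in advance.

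The first comparison asks how the use of the ends differs between nuclear and cytoplasmic RNA. In LM2 cells, 127 members shifted toward the distal end in nuclei and 52 toward the upstream site, and 302 were not called (edgeR quasi-likelihood test of site by group, adjusted p under 0.05). Among all 829 pairs tested there 37.0% were called, 27.4% toward the distal end and 9.65% toward the upstream site, so the members' share, 37.2%, is that of the pairs at large. In Par cells 49 shifted toward the distal end and 20 toward the upstream site, against 13.3% called among all pairs (9.77 and 3.5%). In gHNRNPC cells the counts were 38 and 25, against 14.6% called among all pairs (8.56 and 6.0%). In gCTRL cells they were 111 and 46, against 31.0% (22.3 and 8.67%). All pairs include the members. Among the other pairs 36.8, 11.8, 18.2 and 32.6% were called in LM2, Par, gHNRNPC and gCTRL cells. Among members it was 37.2, 14.3, 12.0 and 29.8%. Nuclear and cytoplasmic libraries did not overlap in 247 members in LM2 cells, 162 in Par cells, 162 in gHNRNPC cells and 243 in gCTRL cells, against 52.0, 34.9, 31.2 and 47.4% of all pairs. The counts in Par cells rest on the libraries that stood apart: without replicate 2 of both nuclear groups 88 members shifted toward the distal end and 34 toward the upstream site, and in LM2 cells 149 and 58. Without replicate 1 or 3 of Par cytoplasm 18 members were called in Par cells, and without replicate 1 or 3 of Par nuclei 40 and 25. In gHNRNPC cells the count was 39 without replicate 3 of cytoplasm and 38 without replicate 2 of nuclei, and in gCTRL cells 94 without replicate 2 of cytoplasm and 85 without replicate 3 of nuclei.

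**Figure D2:**
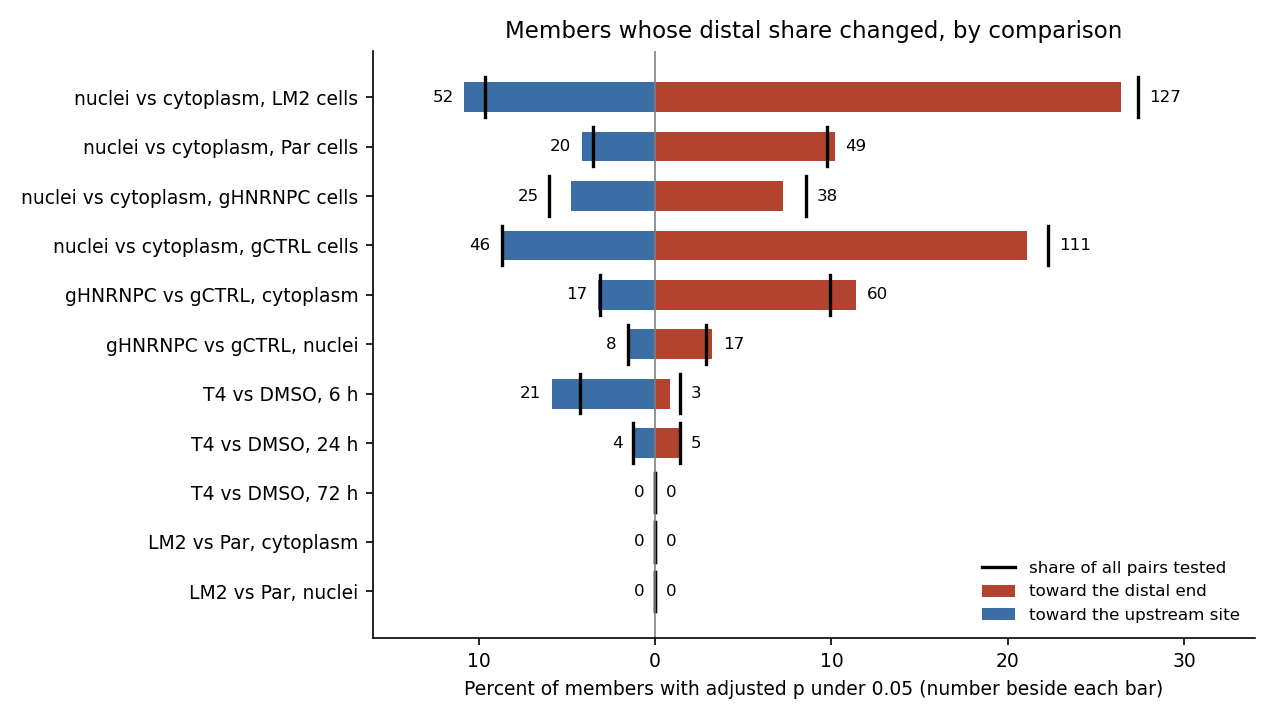
Percent of members with an adjusted p under 0.05 in each comparison, toward the distal end (red, to the right) and toward the upstream site (blue, to the left), with the number of members beside each bar. Black marks give the percent of all pairs of known order, the members included, called in the same direction. A bar ending near its mark is thus partly fixed in advance. Among the other pairs 18.2% were called between the fractions in gHNRNPC cells, against 12.0% of members. For T4 at 6 h 4.30% of the other pairs were called, against 6.70% of members.

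The comparisons in LM2 and Par cells share no library but share 1 fit. In both, 46 members were called toward the distal end, 36.2% of those of LM2 cells and 93.9% of those of Par cells, and 18 toward the upstream site, 34.6 and 90% of them. Of 431 members in both fractionated tables, 21 were called toward the distal end in nuclei of all 4 kinds of cells and 5 toward the upstream site. The 21 included AHNAK, C19orf47, CCND1, CELF1, CHMP4B, EEF1G, EHD1, ERGIC3, NSMF, POLR2J2, PPIAL4G, PPP1R37, PPP4R2, RPS10-NUDT3, SEPT2, UBALD2, VMP1, WDR5, ZBTB44 and ZBTB7A. The 5 were ARNT, GATD1, SLC25A37, SNAP29 and ZNF526. These overlaps were not counted over all pairs of known order, so the recurrence cannot be called particular to members. Among the members called toward the distal end in LM2 nuclei, the CPM of the transcript end was higher in 109 of 127 and that of the upstream site lower in 102 of 127. Such a call largely fixes these directions, so the counts describe the called members and are no further support. CPM is relative to the library, and in such bulk RNA fewer cells and less RNA per cell cannot be told apart.

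AHNAK (chromosome 11, 62433542-62556235) encodes a very large scaffold protein at the plasma membrane. Its distal share was 99.7, 97.0 and 98.8% in LM2 nuclei, against 67.7, 65.4 and 63.2% in LM2 cytoplasm, a log2 change in the ratio of distal to upstream reads of 5.24 ± 0.60 (SE, adjusted p = 7.7e-05). In Par cells it was 98.9, 97.4 and 97.5% in nuclei, against 57.7, 65.9 and 56.5% in cytoplasm (5.07 ± 0.55, adjusted p = 0.00013). No nuclear library overlaps a cytoplasmic one. Its upstream site averaged 10.0 counts over the LM2 and Par libraries, just at the threshold. Without the group where that site was highest AHNAK would not be a member there, so this contrast is a description on few upstream reads. The upstream site was at 3.33 CPM in LM2 nuclei, against 6.44 CPM in LM2 cytoplasm, while the transcript end was at 270.5 CPM in LM2 nuclei, against 12.2 CPM in LM2 cytoplasm.

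SEPT2 (chromosome 2, 241315100-241354027), a septin of the filament-forming GTPases, differed between the fractions at both entries, in opposite directions. It was 94.7, 85.1 and 87.2% distal in LM2 nuclei, against 25.9, 32.7 and 23.9% in LM2 cytoplasm (4.55 ± 0.50, adjusted p = 7.7e-05). The gene total did not pass the test (log2 -0.12, adjusted p = 0.78), with the upstream site at 16.4 CPM in nuclei, against 137 CPM in cytoplasm, and the transcript end at 173 CPM in nuclei, against 52.6 CPM in cytoplasm. In gCTRL cells SEPT2 was 82.7, 89.5 and 94.4% distal in nuclei, against 38.2, 27.9 and 44.4% in cytoplasm (3.91 ± 0.47, adjusted p = 2.8e-06). The nuclear level lay at 82.7% or above in all 4 kinds of cells, and the cytoplasmic libraries ranged from 23.9% in LM2 to 72.4% in gHNRNPC cells.

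SOX9 (chromosome 17, 72121020-72126420), a transcription factor of progenitor cells and cartilage, was 51.9, 43.5 and 37.2% distal in LM2 nuclei, against 2.61, 1.96 and 4.49% in LM2 cytoplasm (4.61 ± 0.47, adjusted p = 6.4e-05). In Par cells it was 51.8, 53.1 and 42.9% in nuclei, against 13.0, 15.8 and 9.38% in cytoplasm (2.74 ± 0.40, adjusted p = 0.0018). The Par libraries do not overlap either. CCND1 (chromosome 11, 69641087-69654474), which encodes cyclin D1 of the G1 phase and is known for shortened mRNAs in tumours, was 97.4, 97.6 and 97.3% distal in LM2 nuclei, against 87.6, 86.0 and 85.9% in LM2 cytoplasm (2.58 ± 0.26, adjusted p = 6.4e-05). Its upstream mRNA was thus the smaller share in both fractions of LM2 cells and was at 25.8 CPM in LM2 nuclei, against 89.2 CPM in LM2 cytoplasm.

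GFPT1 (chromosome 2, 69319769-69387254), the first enzyme of hexosamine synthesis, was 88.4, 82.8 and 79.2% distal in LM2 nuclei, against 23.3, 16.0 and 25.8% in LM2 cytoplasm (4.11 ± 0.50, adjusted p = 0.00011). VMP1 (chromosome 17, 59707192-59842255), a membrane protein of autophagosome formation, was 43.4, 50.6 and 36.3% distal in Par nuclei, against 7.32, 10.9 and 2.78% in Par cytoplasm (3.24 ± 0.51, adjusted p = 0.0035). Its cytoplasmic counts were few, 9 distal and 114 upstream reads over 3 Par libraries.

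Other members went the opposite way. MTRNR2L12 (chromosome 3, 96617188-96618236), a nuclear copy of the mitochondrial humanin sequence, was 7.12, 11.9 and 12.0% distal in LM2 nuclei, against 45.2, 47.7 and 53.7% in LM2 cytoplasm (-3.08 ± 0.34, adjusted p = 7.7e-05); reads of such copies may belong to the mitochondrial gene. PHLDA1 (chromosome 12, 76025447-76033932), a pleckstrin-homology-like regulator of cell survival, was 1.40, 2.46 and 2.22% distal in LM2 nuclei, against 10.6, 13.1 and 10.6% in LM2 cytoplasm (-2.64 ± 0.34, adjusted p = 0.00017). ARNT (chromosome 1, 150809705-150876768), the partner of the hypoxia-inducible factors, was 21.7, 40 and 48.9% distal in LM2 nuclei, against 93.6, 91.2 and 91.9% in LM2 cytoplasm (-4.33 ± 0.58, adjusted p = 0.00023). Its gene total did not pass the test, since the transcript end was at 12.4 CPM in LM2 nuclei, against 34 CPM in LM2 cytoplasm, and the upstream site at 24.8 CPM in nuclei, against 2.90 CPM in cytoplasm.

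HMGB3 (chromosome X, 150980509-150990775), a chromatin protein of the HMG-box family, was 58.2, 47.0 and 53.7% distal in Par nuclei, against 79.8, 77.8 and 88.2% in Par cytoplasm (-2.03 ± 0.44, adjusted p = 0.016). NUDC (chromosome 1, 26900238-26946862), a partner of the dynein motor, was 5.08, 6.21 and 6.32% distal in Par nuclei, against 20.9, 21.6 and 19.6% in Par cytoplasm (-2.07 ± 0.32, adjusted p = 0.0029). RPL23A (chromosome 17, 28719393-28724359), a protein of the large ribosomal subunit, was 14.9, 19.8 and 16.5% distal in LM2 nuclei, against 69.2, 61.3 and 84.8% in LM2 cytoplasm (-3.70 ± 0.61, adjusted p = 0.00081). NDC1 (chromosome 1, 53765460-53838860), a membrane protein of the nuclear pore, was 67.0, 71.7 and 72.2% distal in LM2 nuclei, against 94.3, 93.0 and 92.5% in LM2 cytoplasm (-2.49 ± 0.39, adjusted p = 0.00068). For each of these 4 members the nuclear and cytoplasmic libraries do not overlap.

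**Figure D3:**
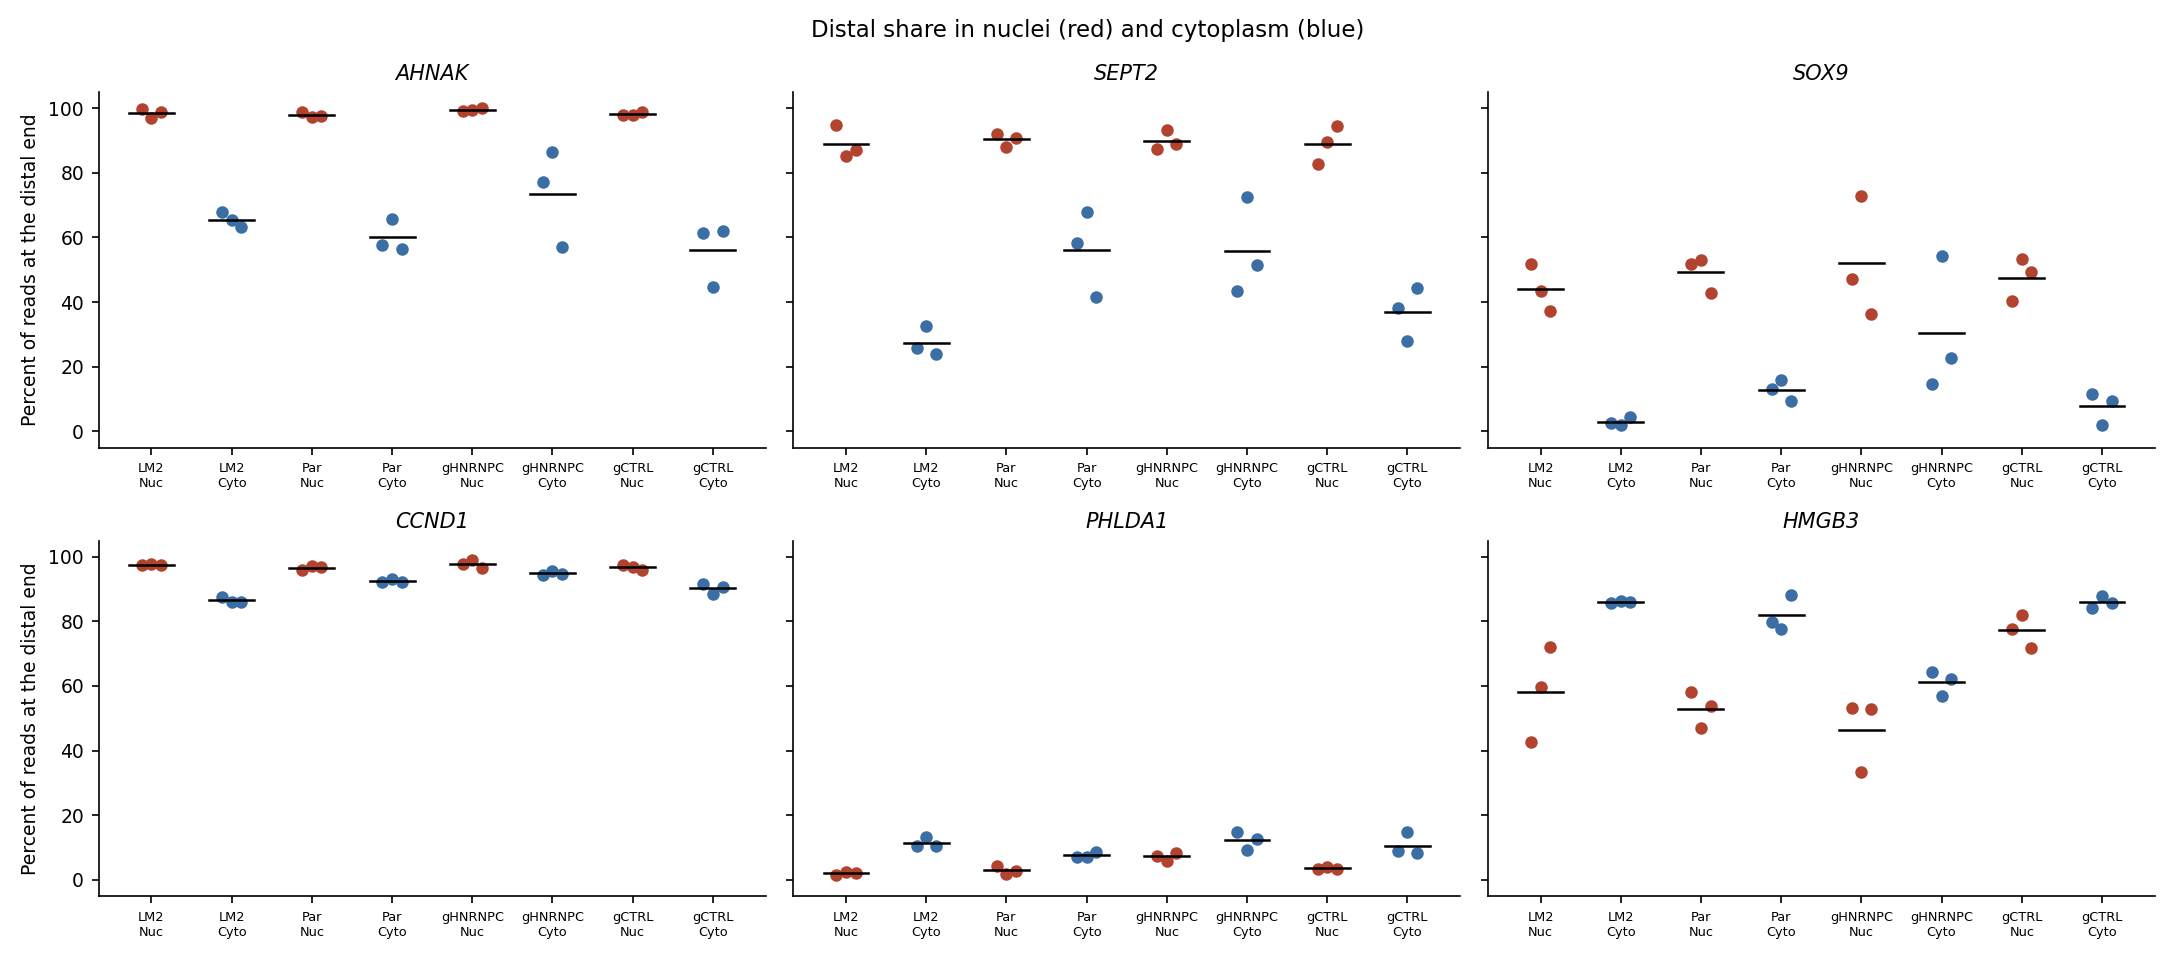
Distal share, in percent of a pair's reads, of 6 members in nuclei (red) and cytoplasm (blue) of LM2, Par, gHNRNPC and gCTRL cells; points are libraries and lines the means of 3. AHNAK, SEPT2 and CCND1 lie higher in nuclei in all 4 kinds of cells, HMGB3 and PHLDA1 lower, and SOX9 overlaps between the fractions in gHNRNPC cells.

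In the knockdown table most of the members with the smallest p between the fractions had fractional counts. C19orf47 (chromosome 19, 40319536-40348527) was 81.0, 84.7 and 82.2% distal in gCTRL nuclei, against 9.98, 11.6 and 8.66% in gCTRL cytoplasm (5.40 ± 0.37, adjusted p = 1.5e-09), and 91.1, 96.4 and 88.3% in gHNRNPC nuclei, against 18.1, 16.3 and 25.7% in gHNRNPC cytoplasm. PPP1R37 (chromosome 19, 45091396-45148077), a regulator of protein phosphatase 1, was 46.5, 29.1 and 35.0% distal in gCTRL nuclei, against 2.25, 4.40 and 2.82% in gCTRL cytoplasm (4.10 ± 0.44, adjusted p = 8.9e-07). These are the members whose transcripts close with a run of A. SNAP29 (chromosome 22, 20858983-20891218), a protein of membrane fusion, was 2.12, 1.57 and 3.04% distal in gCTRL nuclei, against 23.1, 17.3 and 20.3% in gCTRL cytoplasm (-3.49 ± 0.36, adjusted p = 4.4e-07), with 90.2% of its reads in non-whole values. Of the 25 members called toward the upstream site in gHNRNPC nuclei, 17 had over 10% of their reads in such values, and of the 46 in gCTRL nuclei also 17. With those genes left out, 20 and 5 members were called in gHNRNPC cells toward the distal and upstream site, and 87 and 29 in gCTRL cells. AHNAK and SEPT2, with whole counts, remained called in gCTRL cells.

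The next comparison asks what HNRNPC knockdown does to the choice of end. In cytoplasm 60 members shifted toward the distal end and 17 toward the upstream site, and 449 were not called (edgeR, adjusted p under 0.05). Among all 900 pairs 13.0% were called, 9.89% toward the distal end and 3.11% toward the upstream site, and among members 11.4 and 3.23%. In nuclei 17 shifted toward the distal end and 8 toward the upstream site, against 4.44% called among all pairs, 2.89% toward the distal end and 1.56% toward the upstream site. The gHNRNPC and gCTRL libraries did not overlap in 204 members in cytoplasm and 122 in nuclei, against 34.4 and 20.2% of all pairs. The median over members was 51.6, 57.1 and 54.9% distal in gHNRNPC cytoplasm, against 48.4, 44.8 and 47.8% in gCTRL cytoplasm, with no overlap. The cytoplasmic count was 36 and 37 without replicate 2 and 3 of gHNRNPC cytoplasm, and 51 and 40 without replicate 1 and 2 of gCTRL cytoplasm. The nuclear count was 16 and 11 without replicate 1 and 2 of gHNRNPC nuclei and 16 without replicate 2 of gCTRL nuclei.

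The comparisons in cytoplasm and nuclei share no library. In both, 15 members shifted toward the distal end, 25% of the cytoplasmic and 88.2% of the nuclear ones, and 6 toward the upstream site in both, 35.3 and 75% of them. The 15 were BIRC5, CARHSP1, CCNA2, DDX5, DUSP4, EHD1, NSMF, RPL14, RRP7A, SLC35C2, SLC38A2, SMIM7, SPECC1L, TECPR2 and TMEM8A. The 6 were ARNT, HMGB3, IVNS1ABP, SLU7, UBE2H and ZBTB44. No member was called in opposite directions in the fractions. This overlap was not counted over all pairs either. Of the 60 shifted toward the distal end in cytoplasm, 50 had a higher CPM at the transcript end and 53 a lower CPM at the upstream site. The call itself largely fixes these directions for such members. The gene total rose in 5, fell in 14 and was not called in 41, while over all 9356 genes tested totals rose in 1094 and fell in 1091.

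BIRC5 (chromosome 17, 78214186-78225636) encodes survivin, an inhibitor of apoptosis that is also needed for chromosome segregation. Its distal share was 42.1, 48.8 and 43.3% in gHNRNPC cytoplasm, against 5.97, 7.01 and 7.85% in gCTRL cytoplasm (3.44 ± 0.35, adjusted p = 2.8e-06). In nuclei it was 54.6, 62.7 and 40.4% in gHNRNPC cells, against 13.5, 5.94 and 11.3% in gCTRL cells (3.33 ± 0.39, adjusted p = 2.9e-05). The transcript end was at 74.8 CPM in gHNRNPC cytoplasm, against 16.5 CPM in gCTRL cytoplasm, and the upstream site at 91.5 CPM in gHNRNPC cytoplasm, against 221 CPM in gCTRL cytoplasm. In the groups of the other tables no library exceeded 17.2%.

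SPECC1L (chromosome 22, 24270817-24417740), which links actin and microtubules, was 54.9, 76.1 and 60.9% distal in gHNRNPC cytoplasm, against 13.9, 5.61 and 8.91% in gCTRL cytoplasm (4.15 ± 0.47, adjusted p = 8.3e-06). In nuclei it was 59.6, 67.3 and 57.1% in gHNRNPC cells, against 10.8, 12.2 and 17.9% in gCTRL cells (3.34 ± 0.49, adjusted p = 0.00026). Its gene total did not pass the test in either fraction (adjusted p = 0.37 in cytoplasm, 0.94 in nuclei). SPECC1L was a member in the knockdown table only, so no level can be given in LM2 cells.

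SMIM7 (chromosome 19, 16630751-16660442), a small membrane protein, was 44.2, 62.0 and 55.2% distal in gHNRNPC cytoplasm, against 24.9, 21.7 and 24.6% in gCTRL cytoplasm (1.91 ± 0.35, adjusted p = 0.00099). NSMF (chromosome 9, 137447573-137459334), known in neurons as a messenger to the nucleus, was 7.83, 12.6 and 8.71% distal in gHNRNPC cytoplasm, against 3.23, 2.66 and 2.30% in gCTRL cytoplasm (1.91 ± 0.33, adjusted p = 0.00072). TMEM8A (chromosome 16, 370773-387113) was 41.9, 50 and 47.6% distal in gHNRNPC cytoplasm, against 18.0, 3.41 and 8.82% in gCTRL cytoplasm (3.06 ± 0.56, adjusted p = 0.00099). Its transcript end was nearly level, 8.22 CPM in gHNRNPC cytoplasm and 6.80 CPM in gCTRL cytoplasm, and its upstream site was at 9.79 CPM in gHNRNPC cytoplasm, against 64.8 CPM in gCTRL cytoplasm. RRP7A (chromosome 22, 42509968-42519802), a factor of ribosome assembly, was 54.7, 61.4 and 61.0% distal in gHNRNPC cytoplasm, against 25, 24 and 28.2% in gCTRL cytoplasm (2.06 ± 0.34, adjusted p = 0.00049), with 33.4% of its reads in non-whole values.

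In nuclei FZR1 (chromosome 19, 3506273-3538330), an activator of the anaphase-promoting complex, was 88.7, 84.4 and 89.5% distal in gHNRNPC cells, against 64.0, 60.3 and 57.7% in gCTRL cells (2.19 ± 0.32, adjusted p = 0.00026). SLC35C2 (chromosome 20, 46345980-46364458) was 21.3, 14.8 and 19.7% distal in gHNRNPC nuclei, against 3.40, 2.52 and 1.48% in gCTRL nuclei (3.12 ± 0.56, adjusted p = 0.0026). EHD1 (chromosome 11, 64851642-64888296), a protein of endocytic recycling, was 99.3, 99.8 and 99.2% distal in gHNRNPC nuclei, against 97.3, 95.5 and 97.6% in gCTRL nuclei (2.42 ± 0.50, adjusted p = 0.0068). The upstream reads of EHD1 in gHNRNPC nuclei were 9 over 3 libraries, against 75 in gCTRL nuclei.

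Toward the upstream site, HMGB3 was 64.5, 56.7 and 62.3% distal in gHNRNPC cytoplasm, against 84.1, 88.0 and 85.7% in gCTRL cytoplasm (-1.96 ± 0.32, adjusted p = 0.00047). In nuclei it was 53.1, 33.3 and 52.8% in gHNRNPC cells, against 77.6, 82.1 and 71.8% in gCTRL cells (-1.95 ± 0.37, adjusted p = 0.0045). ARNT was 66.7, 32.7 and 50% distal in gHNRNPC cytoplasm, against 86.5, 94.9 and 89.6% in gCTRL cytoplasm (-3.30 ± 0.59, adjusted p = 0.00091), on 142 reads in gHNRNPC and 372 in gCTRL libraries. SLU7 (chromosome 5, 160401641-160421711), a factor of the second step of splicing, was 49.3, 50 and 39.1% distal in gHNRNPC cytoplasm, against 81.5, 84.3 and 72.6% in gCTRL cytoplasm (-2.17 ± 0.41, adjusted p = 0.0011). In none of these do the gHNRNPC and gCTRL libraries overlap.

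FOSL2 (chromosome 2, 28392448-28417312), a subunit of AP-1, was 93.8, 87.1 and 93.8% distal in gHNRNPC cytoplasm, against 97.8, 98 and 97.3% in gCTRL cytoplasm (-1.89 ± 0.37, adjusted p = 0.0018). Here the transcript end was level, at 263 CPM in gHNRNPC cytoplasm and 258 CPM in gCTRL cytoplasm, and the upstream site was at 23.0 CPM in gHNRNPC cytoplasm, against 5.99 CPM in gCTRL cytoplasm. UBE2H (chromosome 7, 129830732-129952949), a ubiquitin-conjugating enzyme, was 61.0, 63.8 and 59.9% distal in gHNRNPC cytoplasm, against 83.7, 92.9 and 78.3% in gCTRL cytoplasm (-1.79 ± 0.42, adjusted p = 0.0079). ZBTB44 (chromosome 11, 130226677-130314908), a zinc finger protein, was 70.6, 77.3 and 70.7% distal in gHNRNPC cytoplasm, against 88.0, 90.6 and 84.6% in gCTRL cytoplasm (-1.41 ± 0.31, adjusted p = 0.0049). IVNS1ABP (chromosome 1, 185296388-185317329), a kelch-repeat protein, was 22.2, 23.3 and 48.6% distal in gHNRNPC nuclei, against 77.5, 68.2 and 75% in gCTRL nuclei (-2.68 ± 0.55, adjusted p = 0.0068). SAR1B, a GTPase of vesicle budding, and DDIT4, an inhibitor of mTORC1, also shifted toward the upstream site in nuclei (-2.52 ± 0.56 and -1.74 ± 0.42, adjusted p = 0.010 and 0.019).

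**Figure D4:**
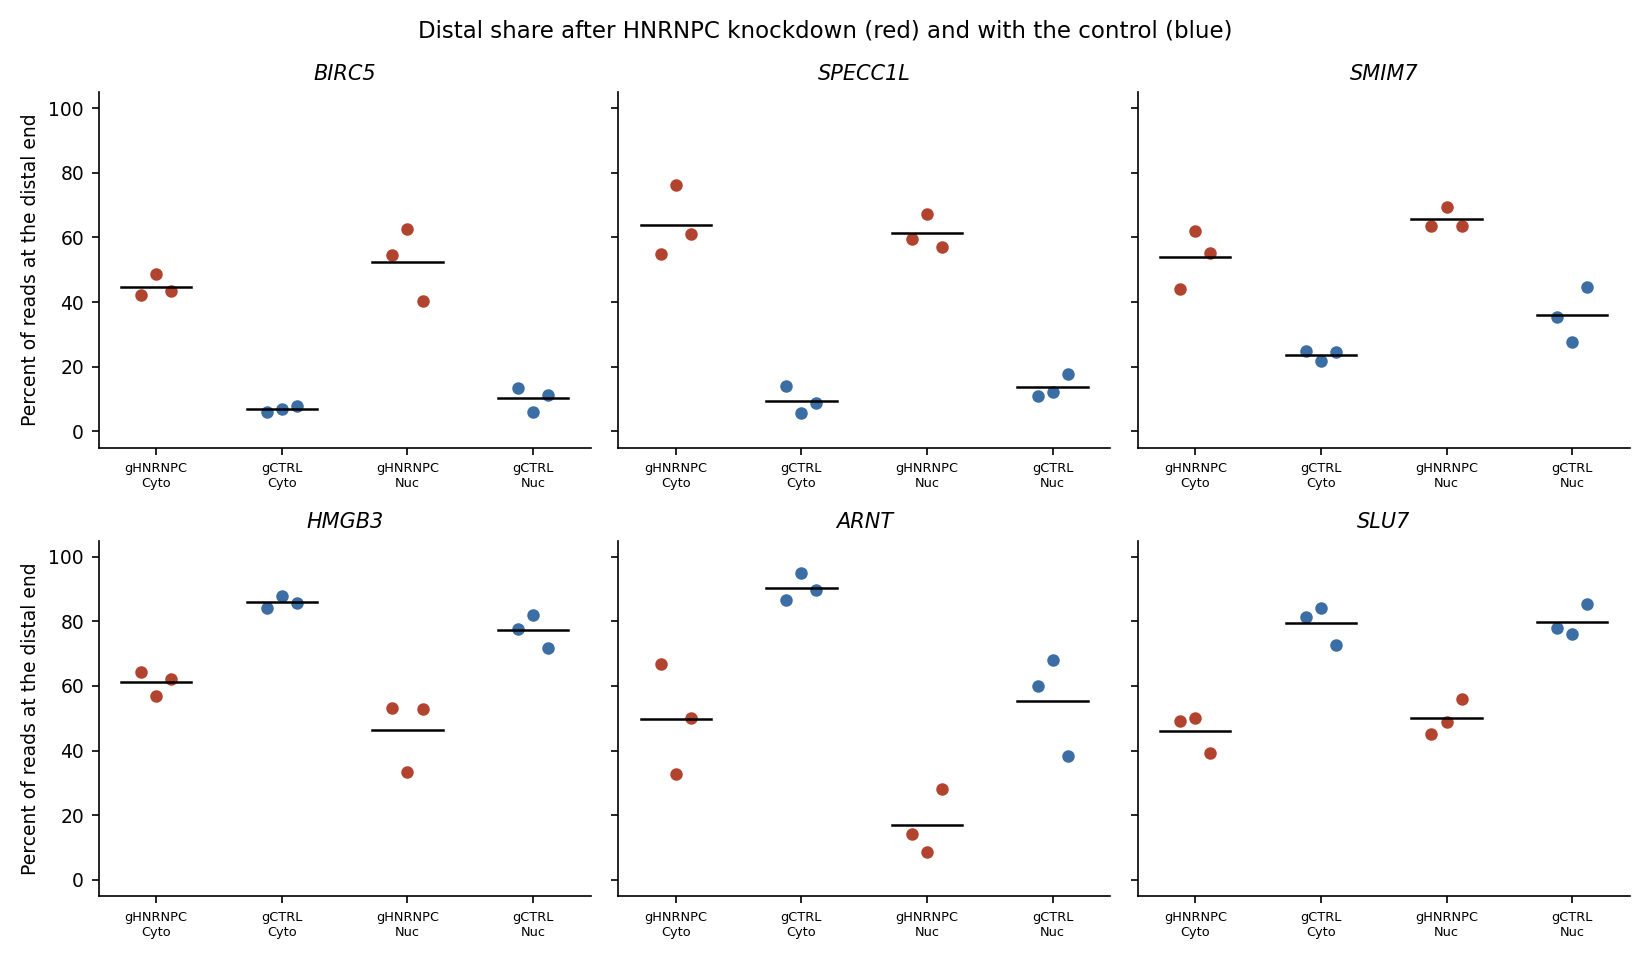
Distal share, in percent of a pair's reads, of 6 members in gHNRNPC (red) and gCTRL (blue) libraries, cytoplasm on the left and nuclei on the right of each plot; points are libraries and lines the means of 3. BIRC5, SPECC1L and SMIM7 lie higher in gHNRNPC libraries in both fractions and HMGB3, ARNT and SLU7 lower, without overlap.

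The difference between the knockdown's effects in nuclei and in cytoplasm was tested itself, and no member passed (0.0% called among all pairs; edgeR, 27 members at an unadjusted p under 0.05; 0 by DESeq2 and 0 by limma). The members of smallest p were FZR1 (difference in log2 of 1.80 ± 0.43, adjusted p = 0.40) and LRP10 toward a larger distal shift in nuclei, and KIF3B and ZNF24 the other way. Of 50 members called toward the distal end in gHNRNPC cytoplasm that were also members in LM2 cells, 26 (52.0%) were called toward the distal end in LM2 nuclei, which is 21.7% of the 120 so called there among 431 members of both tables. In Par nuclei 10 of the 50 were so called, of 48 among the 431. Among all 829 pairs 27.4% were called toward the distal end in LM2 nuclei and 9.77% in Par nuclei. The overlap itself was not counted over all pairs, so it cannot be called particular to members. These comparisons share no library. In the 26 are BIRC5, C19orf47, EHD1, NSMF, SMIM7, SOX9 and ZBTB7A, and ZBTB44 was called in opposite directions.

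The T4 comparison asks how T4 changes the use of the ends in LM2 cells over time. At 6 h, 3 members shifted toward the distal end and 21 toward the upstream site, and 334 were not called. The call is again an adjusted p under 0.05 by edgeR. Among all 637 pairs 5.65% were called, 1.41% toward the distal end and 4.24% toward the upstream site, against 0.838 and 5.87% of members. At 24 h the counts were 5 and 4, against 2.67% called among all pairs (1.41 and 1.26%), and 3 of these 9 members would have had an entry under 10 counts without their highest group. At 72 h no member was called (0.0% among all pairs; edgeR, 13 members at an unadjusted p under 0.05; 0 by DESeq2 and 0 by limma). The median over members was 51.2, 48.7 and 35.3% distal in T4 libraries at 6 h, against 50.5, 54.6 and 54.1% in DMSO libraries, so the groups overlap. T4 and DMSO libraries did not overlap in 89 members at 6 h, 104 at 24 h and 40 at 72 h, against 25.7, 30 and 10.8% of all pairs. The library at 35.3% is the one that stood apart. Without it 3 members were called toward the distal end and 19 toward the upstream site, but with only the 6 h libraries in the fit 0 and 2 were, namely AHNAK and DSTYK. Without replicate 2 of T4 at 6 h the counts were 1 and 14, and without replicate 3 of DMSO at 6 h they were 3 and 10.

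All 21 members called toward the upstream site at 6 h had a lower CPM at the transcript end, and 13 of them a higher CPM at the upstream site. Here too the call largely fixes the directions. Gene totals of the 21 rose in 1, fell in 7 and were not called in 13. Over all 8039 genes tested, totals rose in 274 and fell in 1013. The change of the typical member was small: the median log2 over members was -0.37 at 6 h, -0.23 at 24 h and 0.03 at 72 h, against -0.34, -0.26 and 0.05 over all pairs.

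AHNAK was 20.9, 23.0 and 3.14% distal in T4 libraries at 6 h, against 92.2, 97.7 and 97.4% in DMSO libraries (-7.22 ± 0.69, adjusted p = 3.6e-07; -6.38 without the library that stood apart). At 24 h it was 68.4, 79.7 and 79.6% in T4 libraries, against 96.5, 95.3 and 94.8% in DMSO libraries (-2.72 ± 0.66, adjusted p = 0.040). At 72 h it was 87.0, 93.5 and 84.9% in T4 libraries, against 95.6, 96.1 and 97.9% in DMSO libraries, which did not pass the test (-1.80 ± 0.68, adjusted p = 0.99). The T4 libraries lie below all DMSO libraries at each harvest. At 6 h its upstream site was at 450.4 CPM in T4 libraries, against 7.11 CPM in DMSO libraries, its transcript end at 82.5 CPM in T4 libraries, against 161 CPM in DMSO libraries, and the gene total rose by a log2 of 2.19 (adjusted p = 4.3e-06).

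SLC38A2 (chromosome 12, 46358189-46372867), an amino acid transporter induced by amino acid shortage, was 22.5, 29.8 and 36.4% distal in T4 libraries at 6 h, against 58.5, 76.4 and 80.2% in DMSO libraries (-2.70 ± 0.43, adjusted p = 0.00049). Its total did not pass the test (log2 -0.05, adjusted p = 0.90). After HNRNPC knockdown SLC38A2 had gone the opposite way, 93.1, 94.7 and 89.6% distal in gHNRNPC cytoplasm, against 75.5, 83.4 and 75.2% in gCTRL cytoplasm (1.75 ± 0.35, adjusted p = 0.0022). EHD1 was 85.2, 87.8 and 89.9% distal in T4 libraries at 6 h, against 96.3, 95.4 and 96.0% in DMSO libraries (-1.72 ± 0.32, adjusted p = 0.0024). IFFO2 (chromosome 1, 18904281-18956686) was 34.9, 51.8 and 0% distal in T4 libraries at 6 h, against 80.9, 80.6 and 77.7% in DMSO libraries (-2.97 ± 0.62, adjusted p = 0.0067), and -2.36 without the library at 0%. None of these members' T4 libraries overlaps a DMSO library at 6 h.

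Members with fractional counts were also called. DSTYK (chromosome 1, 205142505-205211566), a kinase, was 0.251, 0.318 and 0.0870% distal in T4 libraries at 6 h, against 2.01, 1.26 and 1.09% in DMSO libraries (-2.73 ± 0.58, adjusted p = 0.0071), with 98.7% of its reads in non-whole values. ZNF557 (chromosome 19, 7069444-7087968), a zinc finger protein, had 0 distal of 249 reads in T4 libraries at 6 h, which allows a share of up to 1.21%, against 36 of 252 in DMSO libraries (adjusted p = 0.0093). No fold is given for it, and 86.6% of its reads are in non-whole values.

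Toward the distal end at 6 h, PHLDA1 was 10.2, 11.1 and 41.5% distal in T4 libraries, against 3.12, 3.80 and 3.90% in DMSO libraries (2.43 ± 0.52, adjusted p = 0.0071; 1.68 without the library at 41.5%). The upstream site was at 213 CPM in T4 libraries, against 1251 CPM in DMSO libraries, and the transcript end was at 35.7 CPM in T4 libraries, against 46.6 CPM in DMSO libraries. At 24 h PHLDA1 was 25.2, 16.4 and 13.9% distal in T4 libraries, against 3.76, 2.65 and 5.74% in DMSO libraries (2.45 ± 0.49, adjusted p = 0.011). At 72 h it was 8.91, 7.96 and 6.67% in T4 libraries, against 3.58, 4.03 and 3.18% in DMSO libraries (1.19 ± 0.48, adjusted p = 0.99), above without overlap but not past the threshold. ARNT was 86.7, 100 and 100% distal in T4 libraries at 6 h, against 30.8, 46.9 and 53.3% in DMSO libraries (4.18 ± 0.90, adjusted p = 0.0077), with 2 upstream reads of 38 in T4 and 47 of 90 in DMSO libraries. MCL1 (chromosome 1, 150574551-150579738), an inhibitor of apoptosis with a short-lived mRNA, was 97.4, 98.1 and 98.2% distal in T4 libraries at 6 h, against 93.9, 91.9 and 93.3% in DMSO libraries (1.73 ± 0.39, adjusted p = 0.0093).

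At 24 h ANKRD1 (chromosome 10, 90912096-90921276), a known target of YAP, was 99.5, 99.1 and 99.8% distal in T4 libraries, against 96.4, 96.3 and 96.1% in DMSO libraries (2.80 ± 0.48, adjusted p = 0.0031). TCF19 (chromosome 6, 31158542-31167159), a cell cycle regulator, was 51.2, 51.5 and 50% distal in T4 libraries, against 23.9, 25.4 and 26.9% in DMSO libraries (1.6 ± 0.34, adjusted p = 0.014). TRIO (chromosome 5, 14143702-14532128), a guanine nucleotide exchange factor, was 10.1, 9.59 and 19.2% distal in T4 libraries, against 32.7, 33.9 and 38.6% in DMSO libraries (-1.93 ± 0.45, adjusted p = 0.029). EEF1G and HSPA8, both highly expressed, moved by about 1 percentage point toward the upstream site (-1.32 ± 0.33 and -1.34 ± 0.36, adjusted p = 0.041 and 0.048). Only PHLDA1 (distal), AHNAK and TRIO (upstream) were called in the same direction at 6 and 24 h, and no member in opposite directions. Many calls at 24 h did not hold under the alternatives. HSPA8 lost the call in 10 of 14 settings, EEF1G in 7 of 14, AHNAK in 7 of 15 and TRIO in 6 of 14. PHLDA1 lost it in 4 of 15, TCF19 in 4 of 14 and ANKRD1 in 0 of 14. Without replicate 1 of DMSO, 1 of T4 or 2 of T4 at 24 h 1 member was called, without replicate 2 of DMSO 2 and without replicate 3 of either group 4, and fitting the 24 h libraries alone 15 toward the distal end and 26 toward the upstream site.

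**Figure D5:**
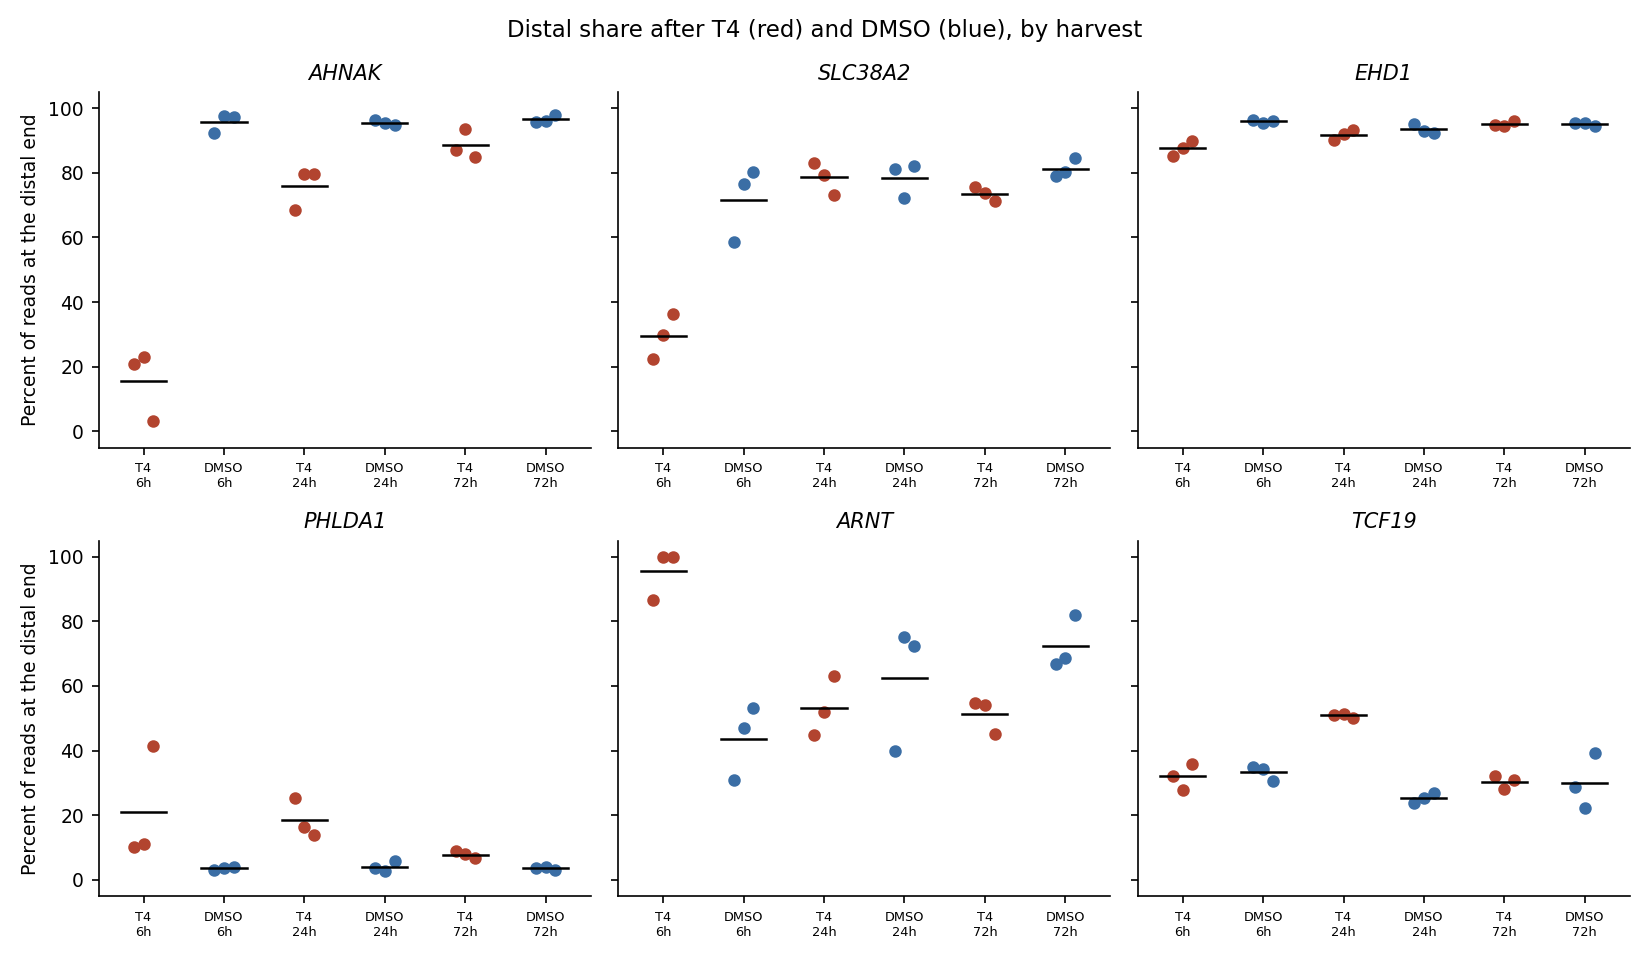
Distal share, in percent of a pair's reads, of 6 members in T4 (red) and DMSO (blue) libraries of LM2 cells at 6, 24 and 72 h; points are libraries and lines the means of 3. AHNAK and SLC38A2 lie lowest in T4 libraries at 6 h, TCF19 differs at 24 h, and AHNAK and PHLDA1 do not overlap between T4 and DMSO at any harvest.

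The difference between the T4 effects at 72 h and at 6 h was tested itself. It was called for 4 members, 3 toward the distal end and 1 toward the upstream site, against 1.73% of all pairs (0.785 and 0.942%): AHNAK (5.42 ± 0.99, adjusted p = 0.0038), ZNF557 (adjusted p = 0.039), DSTYK (3.34 ± 0.79, adjusted p = 0.024) and ARNT (-5.43 ± 1.06, adjusted p = 0.0043). The count was 8 without replicate 2 and 10 without replicate 3 of T4 at 6 h, 8 and 2 without replicate 2 and 3 of DMSO at 72 h, and 2 without replicate 2 of T4 at 72 h. At 72 h neither AHNAK nor DSTYK passed the test, at -1.80 and 0.61 on the log2 scale. ARNT, which was more distal in T4 libraries at 6 h, was 54.8, 54.0 and 45.0% distal in T4 libraries at 72 h, against 66.7, 68.5 and 81.8% in DMSO libraries. Of 103 members called toward the distal end in LM2 nuclei and present in the T4 table, 9 were called toward the upstream site by T4 at 6 h: ACBD3, AHNAK, EHD1, ELOA, GTF3C4, IFFO2, KEAP1, TRIO and WDR5. MCL1 was called toward the distal end in both. Of all 342 members of these tables, 21 were called toward the upstream site at 6 h. Nor was this overlap counted over all pairs of known order.

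LM2 and Par cells were compared in each fraction, to ask whether the more metastatic cells use other ends. The LM2 and Par libraries did not overlap in 171 members in cytoplasm and 35 in nuclei, against 36.8 and 7.48% of all pairs. In cytoplasm no member passed the threshold (0.0% called among all pairs; edgeR, smallest adjusted p 0.061), but 93 had an unadjusted p under 0.05, 30 toward the distal end and 63 toward the upstream site. DESeq2 called 6 and 19 members, limma 1 and 0. With only the cytoplasmic libraries fitted, 36 members were called toward the distal end and 61 toward the upstream site, without replicate 2 of both nuclear groups 21 and 44, and without replicate 3 of Par cytoplasm 6 and 15. In nuclei no member passed either (0.0% called among all pairs; edgeR, 16 members at an unadjusted p under 0.05; 0 by DESeq2 and 0 by limma). The difference between the effects in nuclei and cytoplasm was called for no member (0.0% among all pairs; 32 members at an unadjusted p under 0.05; 0 by DESeq2 and 0 by limma).

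The members of smallest p in cytoplasm had no overlap between LM2 and Par libraries. NDC1 was 94.3, 93.0 and 92.5% distal in LM2 cytoplasm, against 66.4, 74.4 and 81.0% in Par cytoplasm (2.22 ± 0.40, adjusted p = 0.061). ARNT was 93.6, 91.2 and 91.9% distal in LM2 cytoplasm, against 70.6, 62.5 and 80.0% in Par cytoplasm (2.24 ± 0.56, adjusted p = 0.073). SOX9 was 2.61, 1.96 and 4.49% distal in LM2 cytoplasm, against 13.0, 15.8 and 9.38% in Par cytoplasm (-2.21 ± 0.46, adjusted p = 0.061). GNA12 (chromosome 7, 2728112-2844324), a G protein subunit, was 54.4, 50.9 and 46.4% distal in LM2 cytoplasm, against 76.8, 73.0 and 73.7% in Par cytoplasm (-1.52 ± 0.32, adjusted p = 0.061). All 4 passed the threshold without replicate 2 of the nuclear groups, with adjusted p of 0.0091, 0.015, 0.013 and 0.0050. Those nuclear libraries are not in this contrast and enter only through the shared estimate of the spread. Other settings went the other way. Over all alternatives, by edgeR, DESeq2 or limma, the adjusted p rose to as much as 0.27, 0.32, 0.27 and 0.27. In nuclei the smallest p was that of ANKRD1, 95.5, 96.7 and 96.5% distal in LM2 nuclei, against 88.1, 91.7 and 92.2% in Par nuclei (1.37 ± 0.30, adjusted p = 0.39).

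Some of the most read members kept nearly 1 level everywhere. SUMO3, a small ubiquitin-like modifier, stayed between 97.9 and 99.8% distal over all 42 libraries, and EEF2, a translocation factor of translation, between 95.9 and 99.0%; neither was called in any of the 11 comparisons between groups. EEF1G (chromosome 11, 62559601-62574086), a subunit of the elongation factor complex, was called in all 4 comparisons of nuclei with cytoplasm although the change was small: 99.4, 99.1 and 99.1% in LM2 nuclei, against 97.1, 97.2 and 97.5% in LM2 cytoplasm (1.77 ± 0.26, adjusted p = 0.00049). PHLDA1 was at the other end of the range, at most 15.0% in every library outside the T4 groups. RPS18, ENTPD4 and PPIAL4G, also among the 8 most read, had 98.9, 99.2 and 100% of their reads in non-whole values, and their levels are uncertain.

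Lists of genes by role held few members. Of 34 genes known for switching poly(A) sites, 7 were members in LM2 and Par cells and 8 in the knockdown table. In nuclei of LM2 and of Par cells CCND1 and CDC6, a licensing factor of DNA replication, shifted toward the distal end and 5 were not called, against 27.4 and 9.77% of all pairs called toward the distal end in LM2 and Par cells, with a median log2 of 1.27 in LM2 cells, against 0.43 over all members there. CDC6 was 42.3, 32.3 and 25.9% distal in LM2 nuclei, against 10.2, 10.1 and 12.2% in LM2 cytoplasm (2.02 ± 0.38, adjusted p = 0.0018). No gene of this list was called for the knockdown or for T4. Of 25 cleavage and polyadenylation genes 3 were members: NUDT21, the small CFIm subunit, was 80.3, 72.1 and 62.2% distal in LM2 nuclei, against 42.3, 44.2 and 49.2% in LM2 cytoplasm (1.61 ± 0.45, adjusted p = 0.015). PPP1CB, a catalytic subunit of protein phosphatase 1, was 14.3, 14.3 and 12.0% distal in LM2 nuclei, against 43.8, 50.9 and 38.3% in LM2 cytoplasm (-2.36 ± 0.46, adjusted p = 0.0021), and CPSF4 was not called. Among all pairs 37.0% were called between the fractions in LM2 cells, and 3 members are too few to set this list apart.

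Of 37 hnRNP and SR protein genes 6 were members, and 1 was called for the knockdown in cytoplasm: HNRNPAB was 66.2, 77.1 and 80.3% distal in gHNRNPC cytoplasm, against 48.9, 40.2 and 51.9% in gCTRL cytoplasm (1.75 ± 0.46, adjusted p = 0.013). Among all pairs 13.0% were called in that comparison, so 1 call among 5 or 6 members of a list does not set it apart. Of 33 translation factors 6 were members in the knockdown table. EIF2S3, the gamma subunit of eIF2, was the 1 called for the knockdown, 61.2, 65.5 and 67.2% distal in gHNRNPC cytoplasm, against 84.7, 85.0 and 87.8% in gCTRL cytoplasm (-1.73 ± 0.44, adjusted p = 0.013). Of 42 actin and adhesion genes 5 were members, of which MYL6, a myosin light chain, was called toward the distal end for the knockdown in cytoplasm. The list's median log2 between nuclei and cytoplasm was -0.39 in LM2 cells and -0.37 in Par cells, against 0.43 and 0.25 over all members. That median is over 5 genes only. The 2 of them called in both kinds of cells, EZR and MYL6, went toward the distal end in nuclei, and 0 were called toward the upstream site. EZR, which encodes ezrin, was 94.9, 93.2 and 95.2% distal in LM2 nuclei, against 84.3, 85.8 and 92.0% in LM2 cytoplasm (1.27 ± 0.39, adjusted p = 0.022). PDLIM5, a protein with PDZ and LIM domains, was 4.18, 3.53 and 5.95% distal in gCTRL nuclei, against 16.9, 11.2 and 19.4% in gCTRL cytoplasm (-1.98 ± 0.42, adjusted p = 0.0015), and was called toward the upstream site in gHNRNPC nuclei as well (-1.73 ± 0.43, adjusted p = 0.0084), with 92.6% of its reads in non-whole values.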

How the data were processed

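Expected counts per transcript end or position were deposited by the authors in 3 tables; the submitters' processing notes name the quantifier Salmon 0.14.1 and the build hg38, and other settings are not given in the sources used here. A table lists 94924 entries, of which 71604 name a transcript and 23320 a position, and 98.3 to 98.8% of the values are whole. Transcript ends were matched to GENCODE 29 on GRCh38 by ID (66115) and version (56493). Entries without a gene there held 0.919 to 4.13% of a library's reads. Gene coordinates are those of GENCODE 29.

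Counts were rounded to whole numbers and tested with edgeR 4.0.16 (R 4.3.3) by a quasi-likelihood test: 1 row per gene, 2 columns per library, terms for library and for site by group, all groups of a table in 1 fit, and Benjamini-Hochberg adjustment over all 829, 900 or 637 pairs of known order; 242, 269 and 170 of unknown order were left out. The scripts were tested on simulated data. The biological coefficient of variation was 29.4, 21.0 and 23.3% in the LM2 and Par, knockdown and T4 tables. Gene totals were tested with edgeR after its expression filter and TMM scaling. DESeq2 1.42.0 and limma 3.58.1 (log2 ratio, pseudocount 1) were alternatives. There were 14 comparisons, each adjusted by itself. The text names, per comparison, up to 6 called members in each direction without overlap, by adjusted p; without a call, the 2 of smallest p in each direction; and the 8 most read in all tables. From each gene list up to 3 most read members fall under the rule. Some results that the rule names are not reported here. Lists of shared genes, CDC6, PPP1CB and other list members, and second comparisons of a named gene were given after their values were seen. The members and gene lists were chosen with earlier results of these data known. Samples were taken as paired where the deviations of same-numbered libraries correlated for all 3 replicate numbers. That held only for T4 at 72 h, at 0.306, 0.695 and 0.204, and the blocked fit called 0 members there too. For LM2 against Par nuclei the correlations were 0.566, 0.707 and 0.040, so replicates 1 and 2 deviated together there though the rule was not met.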

Additional observations from a re-analysis of the deposited data

Results flagged for a closer look

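The T4 effect on the distal share differed between harvests for 4 members, by a test of the difference itself (edgeR, 72 h minus 6 h, change in the log2 ratio of distal to upstream reads). AHNAK differed by 5.42, DSTYK by 3.34 and ARNT by -5.43. For ZNF557 the fitted difference was 7.23, but with 0 distal reads in T4 libraries at 6 h its size depends on the fit and is no bound. ZNF557 and DSTYK have most of their reads in non-whole values, 86.6 and 98.7%. Without the T4 library at 6 h that stood apart the differences were 4.58 for AHNAK, 2.94 for DSTYK, 7.06 for ZNF557 and -5.1 for ARNT, each still past the threshold. Leaving out single other libraries took the adjusted p of DSTYK to as much as 0.094 and of ZNF557 to 0.11, while AHNAK and ARNT kept the call each time. ARNT had few reads in T4 libraries at 6 h, so the size of its difference also depends on the fit. It ranged from -8.31 to -4.73 over all alternatives. The ARNT effect at 6 h ranged from 3.46 to 7.05 and lost the call in 2 of 14 settings. Their causes were not tested.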

How the results depend on the processing

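Under all alternatives tried for the named members, none of the changes reversed: 1585 values kept direction and side of the threshold, 99 lost the call and 25 gained it. Member counts moved by over 1.5 times as follows. LM2 against Par cytoplasm had 0 members, but 7 with the replicate block, 25 with DESeq2, 1 with limma, 13 with a site mean of 50, 45 without genes of non-whole counts, 97 with only the groups compared and 65 without replicate 2 of both nuclear groups; LM2 against Par nuclei had 1 with a site mean of 50. Nuclei against cytoplasm had 122 in Par cells without those libraries, 25 in gHNRNPC cells without genes of non-whole counts, and with a site mean of 50 had 35, 51, 52 and 24 in Par, LM2, gCTRL and gHNRNPC cells. With that mean gHNRNPC against gCTRL cytoplasm had 29, the difference of knockdown effects 1, T4 at 6 h 4, T4 at 24 h 1 and the difference of T4 effects 1; fewer genes are tested at that mean. With only the groups compared T4 had 2 at 6 h and 41 at 24 h. T4 at 24 h also had 5 with the replicate block, 21 with DESeq2 and 5 with a site mean of 1. The difference of T4 effects had 9 with limma, 13 with DESeq2, 2 without genes of non-whole counts and 2 with only the groups compared. The cause of these moves was not tested.

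Leaving out 1 library at a time gave 0 to 21 members for LM2 against Par cytoplasm, 0 for LM2 against Par nuclei and for T4 at 72 h, 18 to 74 for the fractions in Par cells, 125 to 173 in LM2 cells, 85 to 156 in gCTRL cells and 38 to 68 in gHNRNPC cells. It gave 36 to 92 for the knockdown in cytoplasm, 11 to 27 in nuclei, 13 to 24 for T4 at 6 h, 1 to 4 at 24 h, 2 to 10 for the difference of T4 effects and 0 for the other differences. Named gene totals passed the test in 43 to 47 cases, against 46. Apart from T4 at 72 h, replicate numbers did not pair the samples by the rule used, though replicates 1 and 2 of LM2 and Par nuclei deviated together. Beyond LM2 against Par cytoplasm and T4 at 24 h, given above, the replicate block moved no member count by over 1.5 times. Depth limits members with few reads: those near 10 counts can show only large shifts.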
